A study of Homo sapiens with 6 samples.

Results

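The genes described here encode the proteasome: its core and regulatory subunits, the activators and the inhibitor that bind the core, the chaperones that assemble it, and the transcription factor NFE2L1 with its protease DDI2. Members were chosen by symbol, as every PSMA, PSMB, PSMC, PSMD, PSME, PSMF and PSMG gene of the table together with POMP, ADRM1, SEM1, NFE2L1 and DDI2, which gave 53 of 48114 rows. Both the members and the gene lists set around them were chosen with earlier results of these data known. RNA was sequenced from TC-71, an established human Ewing sarcoma line labelled as WT in genotype, after 16 h with BEZ235 in its solvent dimethyl sulfoxide (DMSO) or after 16 h with DMSO alone. Each group held 3 libraries, described as biological replicates. The labels give no dose. BEZ235 (dactolisib) inhibits PI3K and mTOR kinases, and 1 cell line stands for the tumour type.

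The proteasome degrades ubiquitin-tagged proteins. Its core is a barrel of stacked alpha and beta rings, with protease sites on 3 of the beta subunits, and its regulatory particle consists of a base, whose ATPases unfold and thread the substrate, and a lid, which removes the ubiquitin chain. When proteasome activity runs short, NFE2L1 is freed from the endoplasmic reticulum, cut by DDI2 and carried to the promoters of proteasome genes. In cells of other types, mTOR signalling has been described both as raising proteasome gene expression through NFE2L1 and as restraining proteasome assembly.

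The libraries held 186274074 to 221626548 recovered reads under BEZ235 and 184790722 to 233767211 under DMSO. Values are normalized read counts, and a fold change is a difference of log2(normalized count + 1), BEZ235 minus DMSO. A gene is called where the adjusted p from limma, over 23923 tested genes, is below 0.05. All 10 Ewing sarcoma markers were tested, of which 5 were higher, 4 lower and 1 not called. Over all tested genes, 33.1% were called higher and 33.2% lower. NKX2-2 was higher (log2 fold change 1.26) and NR0B1 lower (-1.11). CD99, the surface antigen used in diagnosis, averaged 208374 ± 2750 under BEZ235 and 263162 ± 3650 under DMSO (SD, n = 3 each). Among 8 blood cell markers, CD3E, MS4A1 and HBB were at 0 in every library, and the summed level was 1461 to 1548 under BEZ235 and 2219 to 3284 under DMSO, nearly all of it CD68, which fell (log2 fold change -0.96). LYZ, the only other blood marker tested, averaged 34.0 ± 13.96 under BEZ235 and 9.42 ± 7.47 under DMSO and was called higher (2.13, adjusted p 0.0335). The summed level of 7 fibroblast and endothelial markers was 5800 to 6303 under BEZ235 and 9321 to 10599 under DMSO, most of it COL1A1. Of the 4 tested, COL1A1 and LUM were lower (-0.73 and -2.65), DCN was higher (0.25) and COL1A2 was not called (0.16), and the endothelial markers CDH5, PECAM1 and VWF were at 12.8 or less in every library. The part of these markers in the results was not tested. In such bulk samples, fewer cells of a type and less RNA per cell cannot be told apart.

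Proteasome genes moved in both directions, with falls outnumbering rises. Of 51 tested members, 45 were called, or 88.2%, against 66.3% of all tested genes. Lower calls numbered 30 (58.8% of members against 33.2% of all genes), and higher calls numbered 15 (29.4% against 33.1%). The median log2 fold change was -0.32 over the members and -0.00085 over all tested genes. Most shifts were small: 8 members, or 15.7%, were called and changed at least 2-fold, against 26.3% of all tested genes. These were PSMB10 and PSMG2, which were higher, and NFE2L1, PSMB9, PSMB8, PSMD7, PSMD14 and PSMD11, which were lower. The BEZ235 and DMSO libraries did not overlap for 46 members, or 90.2%, against 70.9% of all tested genes. These shares were not matched for count level. Most members were abundant, while the tested genes include rows with as few as 10 normalized counts in 3 libraries. The counts per class below stand beside the same 33.1% higher and 33.2% lower of all tested genes. No class was tested as a set.

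**Figure D1:**
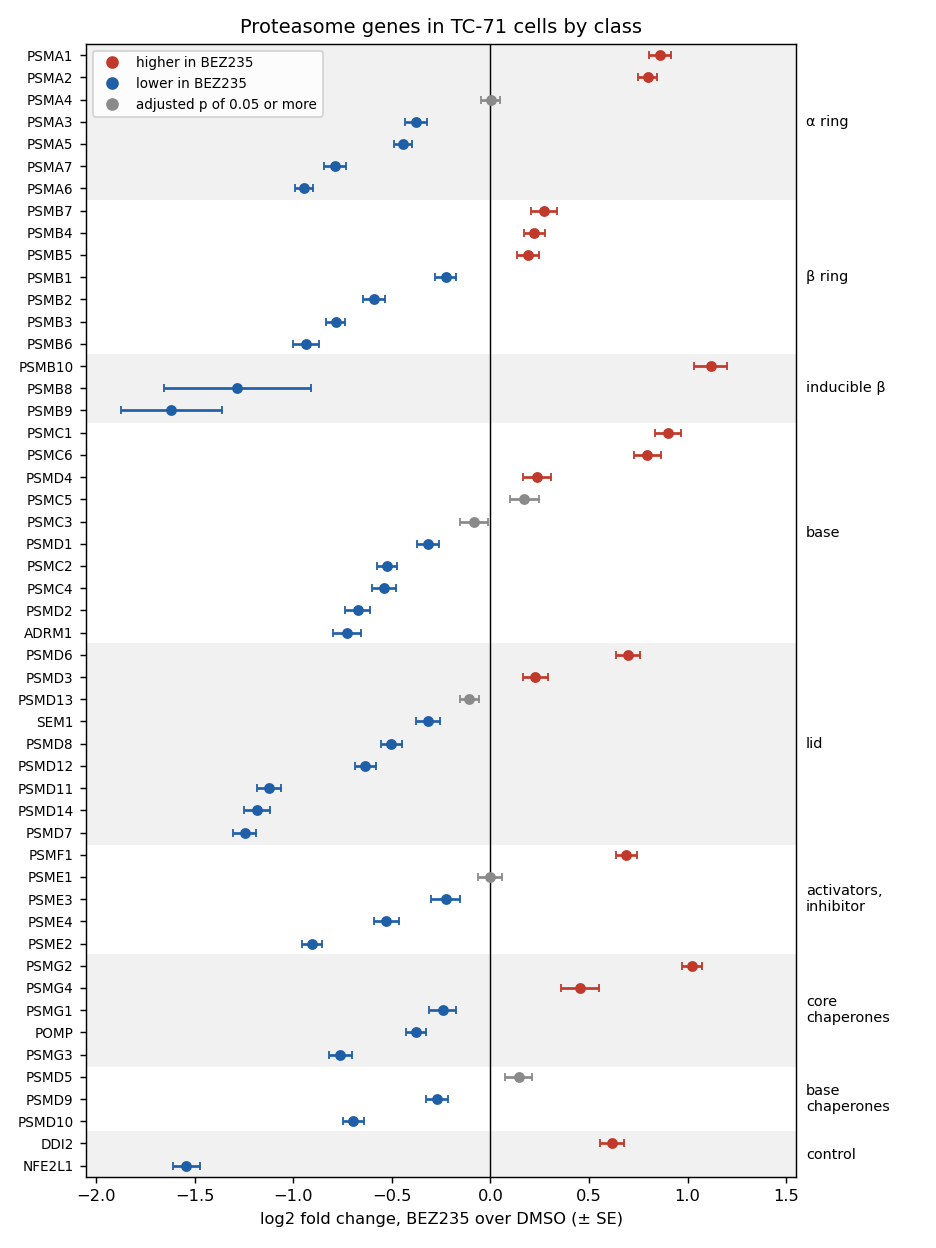
The log2 fold change of each of the 51 tested members, BEZ235 over DMSO, with its standard error, grouped by class (rows) and coloured by call. Each class except the base chaperones holds both higher and lower calls, and NFE2L1 and PSMB9 lie farthest to the left.

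NFE2L1, the transcription factor that drives proteasome genes, had 1 of the deepest falls among the members, while DDI2, the protease that activates it, rose. NFE2L1 (chr17:48048342-48061545, hg38) had 24963, 26263 and 23006 normalized counts under BEZ235, against 66995, 76300.04 and 72814 under DMSO. Every BEZ235 library lay far below every DMSO library, a 2.91-fold fall (log2 fold change -1.54, SE 0.066, adjusted p 8.67e-09). DDI2 (chr1:15617458-15669044) had 9448, 10441 and 9450.07 under BEZ235, against 6184, 6732 and 6238 under DMSO. The groups did not overlap, and the rise was 1.53-fold (0.61, SE 0.060, adjusted p 4.8e-06); the row is shared with RSC1A1, so reads of that gene may be included.

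Genes that act on the NFE2L1 protein moved in the same table, mostly downward. Of 12 such genes, 2 were called higher, 8 lower and 2 were not called, with a median log2 fold change of -0.29. Among all tested genes, 33.1% were called higher and 33.2% lower. SEL1L, the adaptor of the ubiquitin ligase complex that retrieves proteins from the endoplasmic reticulum, averaged 1429 ± 39.1 under BEZ235 and 4925 ± 90.2 under DMSO, a log2 fold change of -1.78 (adjusted p 1.41e-09). Its partner ligase SYVN1 fell by 0.71 on the log2 scale (adjusted p 1.43e-06). NGLY1, which strips sugars from NFE2L1, averaged 5256 ± 308 under BEZ235 and 3576 ± 140 under DMSO, a rise of 0.55 (adjusted p 1.41e-05). BTRC, a ligase subunit that marks nuclear NFE2L1 for destruction, rose by 0.83 (adjusted p 6.63e-06). FBXW7 and SKP1, other ligase subunits on this list, were named after their values were seen. They fell by 0.51 and 0.30 on the log2 scale (adjusted p 0.000168 and 0.00051).

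NFE2L1 binds antioxidant response elements, and the promoters of the members were searched for the core letters TGACNNNGC on both strands. RefSeq windows (GRCh38.p14) from 250 bases before to 50 after a start site matched 47 members. PSMB6, PSMA7, PSMG3, PSMB7, PSMB1 and PSMD4 had no entry. The letters occurred in a window of 17 of the 47 members (36.2%) and of 16.1% of 27305 symbols with a promoter. They also take in the AP-1 letters TGACTCA where GC follows. By windows in place of symbols, 18 of 60 member windows (30.0%) and 13.3% of 35116 windows held the letters. Members and all symbols were not matched for base composition or expression, for these or the other letters searched below. The SEM1 match (chr7:96503668-96503696, minus strand) lies inside its row, far from the row's 5′ end at 96709891. The following windows show the match, in capitals, in members that fell (ADRM1, PSMB3, PSMD12), rose (PSMD3, PSMG2) or were not called (PSMA4), each read 5′ to 3′ on the strand of its gene.
ADRM1: cgctcccctaTGACACAGCaacaataggg
PSMB3: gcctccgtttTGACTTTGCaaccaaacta
PSMD12: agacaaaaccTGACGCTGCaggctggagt
PSMD3: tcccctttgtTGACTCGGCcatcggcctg
PSMG2: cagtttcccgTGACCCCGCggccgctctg
PSMA4: gtgggcacgaTGACTCTGCaccgcctcct
They lie at chr20:62302749-62302777 (plus strand), chr17:38752627-38752655 (plus), chr17:67366724-67366752 (minus), chr17:39980760-39980788 (plus), chr18:12658689-12658717 (plus) and chr15:78540650-78540678 (plus), in the order printed.

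Of the 17 members with the letters, 2 were higher, 11 lower and 4 not called, with a median log2 fold change of -0.32. Among the other 30 members with a window, 28 were tested, of which 11 were higher, 15 lower and 2 not called, with a median of -0.30. The medians of members with and without the letters were thus close, while higher calls were a smaller share of those with the letters. Neither comparison was tested. The CCAAT box, the site of the factor NF-Y, was present for 23 of 47 members (48.9%) and 39.7% of all symbols. The members with it included NFE2L1 and gave 4 higher, 15 lower and 3 not called, against 9 higher, 11 lower and 3 not called among those without. Their median log2 fold changes were -0.41 with the box and -0.11 without it, a difference that was not tested. The cyclic AMP response element TGACGTCA was found for 0 of 47 members and 2.25% of all symbols, which says only that these letters are not in these windows.

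In the alpha ring, which gates the entry to the core, subunits moved apart. Of 7 tested genes 2 rose, 4 fell and 1 was not called. PSMA1 (chr11:14504876-14643662) had 20036, 19322 and 19495 normalized counts under BEZ235, against 11388, 10100.34 and 10927 under DMSO. PSMA6 (chr14:35278558-35317493) had 23944, 23600.43 and 24550.26 under BEZ235, against 46958, 45280.07 and 46577 under DMSO. Neither gene's groups overlapped, and PSMA1 was 1.82-fold higher (0.86, SE 0.056, adjusted p 1.75e-07) while PSMA6 was 1.93-fold lower (-0.95, SE 0.047, adjusted p 2.61e-08). PSMA2 moved with PSMA1, averaging 23416 ± 272 under BEZ235 and 13482 ± 254 under DMSO. PSMA7, PSMA5 and PSMA3 fell, with log2 fold changes of -0.79, -0.44 and -0.38. PSMA4 had 19018 ± 558 under BEZ235 and 18998 ± 291 under DMSO (adjusted p 0.984). PSMA8, the alpha subunit of the testis proteasome, was at 0 in all 6 libraries, where 3 reads correspond to 2.50 to 3.47 normalized counts.

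Among the 7 constitutive beta subunits, 3 rose slightly and 4 fell, and the 3 that carry protease sites did not move together. PSMB5, the chymotrypsin-like subunit and main target of bortezomib (chr14:23025852-23035220), had 106028, 110384.77 and 102430.45 normalized counts under BEZ235, against 89251, 95287 and 95169.91 under DMSO. Its libraries did not overlap, but the rise was 1.14-fold (0.19, SE 0.057, adjusted p 0.0122). PSMB7, the trypsin-like subunit (chr9:124353465-124415473), had 29567, 31108 and 28531 under BEZ235, against 23033, 26971 and 24035 under DMSO, a 1.21-fold rise (0.27, SE 0.065, adjusted p 0.00356). Both small rises depended on scaling: with libraries scaled to their total count, the adjusted p was 0.211 for PSMB5 and 0.0726 for PSMB7. PSMB5 also lost its call without 1 library, at an adjusted p of 0.0567 when BEZ235 replicate 2 was left out and of 0.0505 when DMSO replicate 1 was. The whole PSMB5 row lies within that of DAD1, which fell by 0.87 on the log2 scale. The PSMB7 row overlaps that of LOC100129034, which averaged 12499 under BEZ235 and 10674 under DMSO. That row rose by 0.23 (adjusted p 0.00603), and it may share reads with PSMB7.

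PSMB6, the caspase-like subunit (chr17:4796164-4798495), had 22585, 24276 and 22180.04 normalized counts under BEZ235, against 40269, 47611 and 44507 under DMSO. The highest BEZ235 library stayed well under the lowest DMSO library, and the fall was 1.91-fold (-0.94, SE 0.067, adjusted p 3.87e-07). The structural subunits PSMB3, PSMB2 and PSMB1 fell, with log2 fold changes of -0.78, -0.59 and -0.23. PSMB4 rose by 0.22 (adjusted p 0.00331), a call lost with total-count scaling (adjusted p 0.101). Over the 14 standard core subunits, 5 were higher, 8 lower and 1 not called, and log2 fold changes ran from -0.95 to 0.86.

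**Figure D2:**
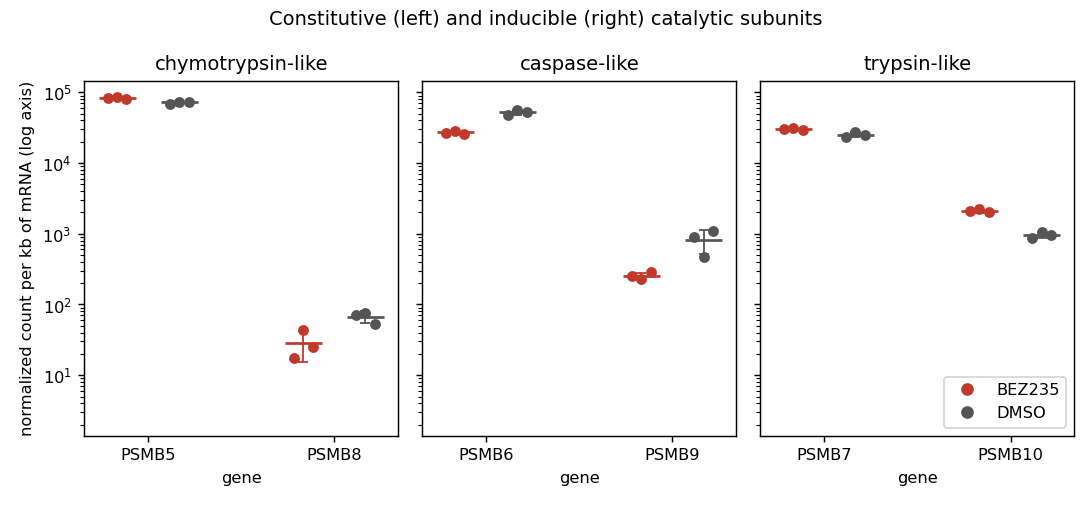
Normalized counts per kb of mRNA (log axis) for each constitutive catalytic subunit and its inducible counterpart, with 3 libraries per group as points, the mean as a line and the SD as a bar. BEZ235 libraries lie above DMSO for PSMB10, PSMB5 and PSMB7, and below DMSO for PSMB8, PSMB9 and PSMB6.

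The inducible beta subunits replace the constitutive ones in the immunoproteasome, which is known for making peptides for class I antigen presentation. Here they split, with PSMB10 higher and PSMB8 and PSMB9 lower. Interferon-driven genes often carry a response element built on the letters GAAANNGAA. These letters, searched on both strands, occurred for 9 of 47 members (19.1%) and 9.86% of all symbols. The windows of the immunoproteasome genes and of the chaperone PSMG4 carry the match in capitals on the strand of the gene, and are printed since genes with the same letters moved in opposite directions.
PSMB10: gggtaaaggcGAAAGCGAAagcaggaagt
PSMB8: atctgtggctTTCGCTTTCacttcctcct
PSME1: ccctaccgctTTCGCTTTCccttcgcggt
PSME2: cctggggagtGAAAGCGAAagcccgggcg
PSMG4: ttccggggccGAAAGCGAAagcgcgctcg
They lie at chr16:67936853-67936881 (minus strand), chr6:32844032-32844060 (minus), chr14:24136190-24136218 (plus), chr14:24146620-24146648 (minus) and chr6:3258904-3258932 (plus) of GRCh38.p14, in the order printed. The capitals read the same in PSMB10, PSME2 and PSMG4, and their reverse complement stands in PSMB8 and PSME1. Of the 9 members with the letters, 3 were higher (PSMB10, PSMB4, PSMG4), 4 lower (PSMB8, PSME2, PSMC2, POMP) and 2 not called (PSME1, PSMA4). The window of PSMB9 did not hold them.

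PSMB10, the inducible trypsin-like subunit (chr16:67934506-67936866), had 2538, 2715 and 2446 normalized counts under BEZ235, against 1069, 1298 and 1187 under DMSO. All BEZ235 libraries stood above all DMSO libraries, a 2.17-fold rise (1.12, SE 0.084, adjusted p 5.85e-07). PSMB9, the inducible caspase-like subunit (chr6:32854148-32859851), had 197, 178 and 222 under BEZ235, against 711, 373 and 856 under DMSO. DMSO replicate 2 was low among the controls but still above every BEZ235 library, and the fall was 3.07-fold (-1.62, SE 0.26, adjusted p 0.000197). PSMB8, the inducible chymotrypsin-like subunit (chr6:32840717-32844679), had 19.7, 48.4 and 28.1 under BEZ235, against 81.0, 85.7 and 59.3 under DMSO. These values rest on 97 reads under BEZ235 and 229 under DMSO, the groups did not overlap, and the fall was 2.43-fold (-1.28, SE 0.37, adjusted p 0.0104). The PSMB8 row overlaps its antisense gene PSMB8-AS1, which fell by 0.61 on the log2 scale. PSMB11, the thymus subunit, had 0, 0 and 2.72 under BEZ235, against 1.08, 0 and 0 under DMSO, and was not tested.

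Against the subunit each replaces, and per kb of mRNA, PSMB10 made up 6.94% ± 0.0692 of PSMB7 under BEZ235 and 3.86% ± 0.119 under DMSO (SD, n = 3 each). PSMB9 stood at 0.946% ± 0.147 of PSMB6 under BEZ235 and 1.62% ± 0.673 under DMSO. PSMB8 came to 0.0345% ± 0.0148 of PSMB5 under BEZ235 and 0.0933% ± 0.0187 under DMSO. The log2 ratio changed by 0.85 for PSMB10 to PSMB7 and by -1.47 for PSMB8 to PSMB5, each with an exact two-sided permutation p of 0.1, the smallest that 3 against 3 can give (0.15 adjusted over the 3 ratios). For PSMB9 to PSMB6 it changed by -0.68 with overlapping libraries (exact permutation p 0.3, adjusted 0.3). That ratio was -1.09 without DMSO replicate 2 and -0.44 without DMSO replicate 3.

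PSMB8 and PSMB9 lie in the class I antigen region of chromosome 6 on either side of TAP1 (chr6:32845209-32854007), the peptide transporter gene that shares a promoter region with PSMB9. TAP1 averaged 1830 ± 147 under BEZ235 and 2526 ± 174 under DMSO, a log2 fold change of -0.47 (adjusted p 0.000371). Of 12 genes of class I peptide supply, none was called higher, 10 were lower and 2 were not called, with a median of -1.06. Called shares over all tested genes were 33.1% higher and 33.2% lower. TAP2, the partner of TAP1, averaged 834 ± 36.6 under BEZ235 and 2652 ± 163 under DMSO (-1.67, adjusted p 1.35e-08). HLA-C, a class I heavy chain, fell by 1.51 on the log2 scale (adjusted p 1.06e-08).

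The base of the regulatory particle gave 3 higher, 5 lower and 2 uncalled genes. PSMC1, an ATPase subunit (chr14:90256544-90275409), had 9292, 9075 and 8006 normalized counts under BEZ235, against 4892, 4595 and 4630.26 under DMSO. Its groups were far apart, with a 1.86-fold rise (0.90, SE 0.066, adjusted p 4.48e-07); 13 pseudogenes are named after PSMC1 in GENCODE v29, and how reads shared with them were counted is not given. ADRM1, the ubiquitin receptor that also docks the deubiquitinase UCHL5 (chr20:62302896-62308862), had 12918, 13247 and 12156 under BEZ235, against 19646, 23623 and 20269.5 under DMSO, a 1.65-fold fall without overlap (-0.73, SE 0.071, adjusted p 4.76e-06). The 6 ATPases did not move as a ring. PSMC6 rose by 0.80 on the log2 scale, PSMC2 and PSMC4 fell (-0.52 and -0.54), and PSMC3 and PSMC5 changed by -0.08 and 0.17 (adjusted p 0.33 and 0.062). PSMD2, a scaffold and ubiquitin receptor, and the scaffold PSMD1 fell, with log2 fold changes of -0.67 and -0.32. The whole PSMD2 row lies within that of EIF2B5, which averaged 9876 under BEZ235 and 10104 under DMSO (-0.03, adjusted p 0.57). PSMD4, also a ubiquitin receptor, rose by 0.24 (adjusted p 0.0116), and lost the call with total-count scaling (adjusted p 0.152), with limma fitted without the trend (0.0657) and without BEZ235 replicate 2 (0.0599).

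Of the alpha ring, the constitutive beta ring, the base and the lid, the lid had the lowest median log2 fold change, -0.50. Of its 9 genes, 6 were lower, 2 higher and 1 uncalled, against 33.2% lower and 33.1% higher over all tested genes. PSMD7 (chr16:74296788-74306288), partner of the deubiquitinase PSMD14, had 20380.05, 19979 and 20025 normalized counts under BEZ235, against 44524, 51205 and 47685 under DMSO. The BEZ235 libraries were tightly grouped at less than every DMSO value, a 2.37-fold fall (-1.25, SE 0.058, adjusted p 1.51e-08). PSMD14 (chr2:161308038-161411717), which cuts the chain from the substrate, averaged 24445 ± 553 under BEZ235 and 55652 ± 4798 under DMSO, a fall of 2.27-fold (-1.18, adjusted p 4.68e-08). The PSMD14 row overlaps an unnamed row that averaged 7585 under BEZ235 and 11172 under DMSO (-0.56), and reads may be shared. PSMD11 (chr17:32444474-32483319), a scaffold of the lid, averaged 4482 ± 295 under BEZ235 and 9750.36 ± 332 under DMSO, a fall of 2.18-fold (-1.12, adjusted p 4.95e-08).

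PSMD6 went the other way in the same lid. This scaffold gene (chr3:64010429-64024007) had 5149, 5046 and 4748 under BEZ235, against 3239.55, 2956 and 3029 under DMSO. Its groups did not overlap and it was 1.62-fold higher (0.70, SE 0.061, adjusted p 1.96e-06). SEM1, the small acidic subunit that also binds BRCA2 (chr7:96481626-96709891), had 15532, 14624 and 13688 under BEZ235, against 18447, 18758 and 17384 under DMSO, a 1.25-fold fall without overlap (-0.32, SE 0.059, adjusted p 0.000644). PSMD12 and PSMD8 fell (log2 fold changes -0.64 and -0.50), and PSMD3 rose by 0.23 (adjusted p 0.00929; 0.0526 with total-count scaling and 0.0557 without the trend). PSMD13 had 12406 ± 339 under BEZ235 and 13360.23 ± 189 under DMSO, groups that did not overlap, with an adjusted p of 0.0697. Summed over the 9 lid genes, counts ran from 129761 to 136729 under BEZ235 and from 205457 to 222310 under DMSO.

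**Figure D3:**
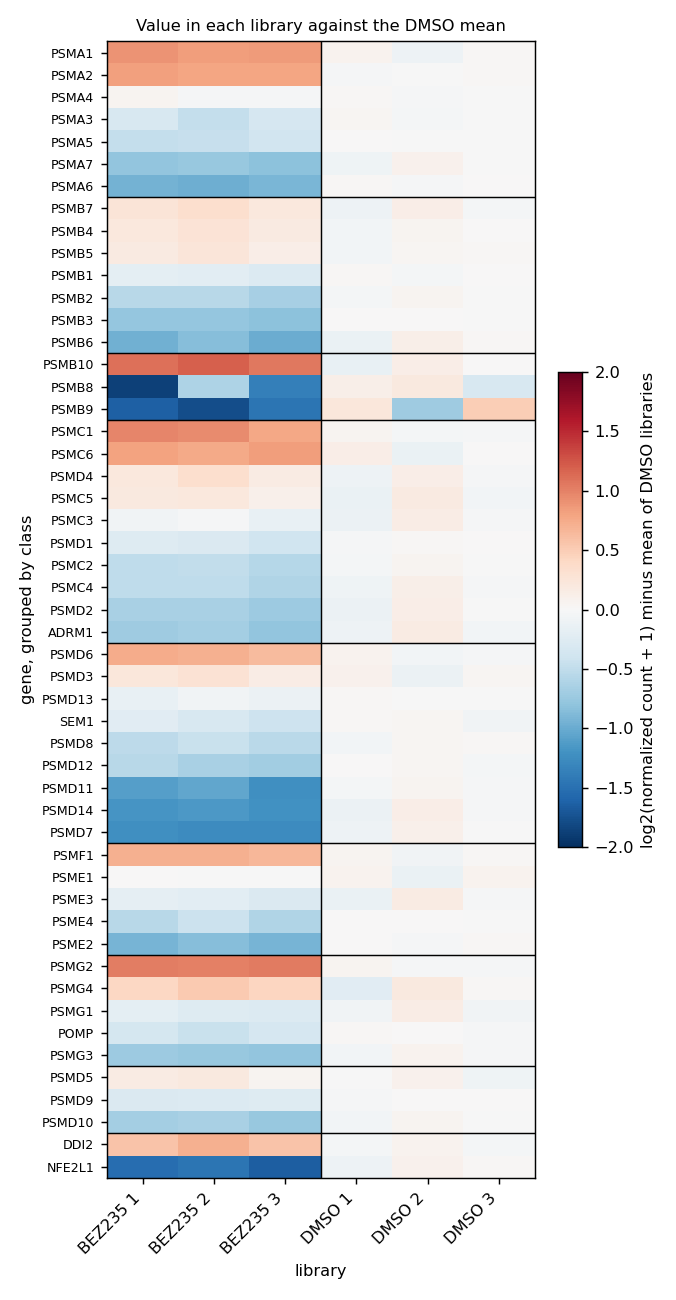
Each tested member (rows, grouped by class) in each library (columns, BEZ235 left of DMSO), as log2(normalized count + 1) minus the mean of the DMSO libraries. Colours are even across the 3 BEZ235 libraries for most genes, and PSMB8 and PSMB9 vary most within a group.

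Among the activators and the inhibitor that bind the core in place of the regulatory particle, 1 gene rose, 3 fell and 1 was not called. PSMF1, the inhibitor (chr20:1113263-1172246), had 12495, 12496 and 12106 normalized counts under BEZ235, against 7984, 7266 and 7772 under DMSO. The groups lay apart and PSMF1 was 1.61-fold higher (0.69, SE 0.053, adjusted p 6.98e-07). PSME2, the beta chain of the interferon-inducible activator ring, had 5929.75, 6289.56 and 5953 under BEZ235, against 11341, 11103 and 11549.78 under DMSO, a 1.87-fold fall (-0.90, SE 0.051, adjusted p 6.09e-08). That row (chr14:24143365-24697845) spans 554481 bases where GENCODE v29 gives the gene 4209, and it overlaps 31 other tested rows, so its value may hold reads of other genes. PSME1, the alpha chain of the same ring, had 16389, 16251 and 16082 under BEZ235, against 17028, 14794 and 17040.5 under DMSO, with overlapping groups (adjusted p 0.989). PSME4 and PSME3 fell (log2 fold changes -0.53 and -0.23), and PSME3 lost its call without BEZ235 replicate 3 (adjusted p 0.0718) and without the trend (0.0805).

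The chaperones that build the core act in pairs, PSMG1 with PSMG2 and PSMG3 with PSMG4, and in each pair 1 gene rose and its partner fell. PSMG2 (chr18:12658738-12725740) had 9729.66, 9634 and 9778 normalized counts under BEZ235, against 4958, 4689 and 4691 under DMSO. Its groups were widely separated, with a 2.03-fold rise (1.02, SE 0.051, adjusted p 2.41e-08), while CEP76, whose row overlaps it, fell by 0.51 on the log2 scale. PSMG1 averaged 5808 ± 176 under BEZ235 and 6887 ± 631 under DMSO (-0.24, adjusted p 0.00889), from a row of 106370.0 bases where GENCODE v29 gives the gene 9083.

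PSMG3 (chr7:1567332-1570032) had 3591, 3504 and 3434 under BEZ235, against 5727, 6252 and 5875 under DMSO. Its libraries did not overlap, and the fall was 1.69-fold (-0.76, SE 0.057, adjusted p 5.27e-07). PSMG4 (chr6:3258947-3291984) averaged 3274 ± 137 under BEZ235 and 2406 ± 354 under DMSO (0.45, adjusted p 0.00166); its row overlaps 4 other tested rows, among them SLC22A23. POMP, which closes the beta ring and is consumed once the core matures (chr13:28656616-28678959), had 39213, 36869.62 and 39812 under BEZ235, against 50851, 50678 and 49181 under DMSO. All 3 BEZ235 values were below all DMSO values, a 1.30-fold fall (-0.38, SE 0.051, adjusted p 5.82e-05).

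Of the 3 members that are chaperones of the base, 2 fell and 1 was not called. PAAF1, another base chaperone that is no member and was named after its values were seen, averaged 4108 ± 189 under BEZ235 and 2925 ± 179 under DMSO, a rise of 0.49 on the log2 scale (adjusted p 5.76e-05). PSMD10, also known as gankyrin (chrX:108084207-108091618), had 13206, 13473 and 12457 normalized counts under BEZ235, against 20408, 21965 and 20977 under DMSO, a 1.62-fold fall without overlap (-0.69, SE 0.053, adjusted p 6.34e-07). PSMD9 fell by 0.27 on the log2 scale (adjusted p 0.00146). PSMD5 averaged 4359 ± 214 under BEZ235 and 3952 ± 255 under DMSO (0.14, adjusted p 0.0793).

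Factors that bind the proteasome and genes that supply ubiquitin moved in both directions. Of 17 bound factors and shuttles, 16 were tested, of which 4 were higher, 7 lower and 5 not called, with a median log2 fold change of 0.01. For this list and the ubiquitin genes below, the shares over all tested genes were 33.1% higher and 33.2% lower. Neither list was tested against these shares. AKIRIN2, which brings proteasomes into the nucleus, averaged 12803 ± 557 under BEZ235 and 28396 ± 2062 under DMSO (-1.15, adjusted p 4.8e-08). ECPAS, a scaffold that holds core and regulatory particle together, averaged 39229.55 ± 1687 under BEZ235 and 19228 ± 989 under DMSO (1.03, adjusted p 5.14e-08). TXNL1, a thioredoxin of the regulatory particle, rose by 0.86 (adjusted p 8.63e-08). Of 6 ubiquitin and E1 enzyme genes, 3 were higher, 2 lower and 1 not called. RPS27A, which encodes ubiquitin fused to a ribosomal protein, rose by 0.62 on the log2 scale (0.27 with quantile normalization), and the activating enzymes UBA1 and UBA6 fell (-0.52 and -0.43).

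**Figure D4:**
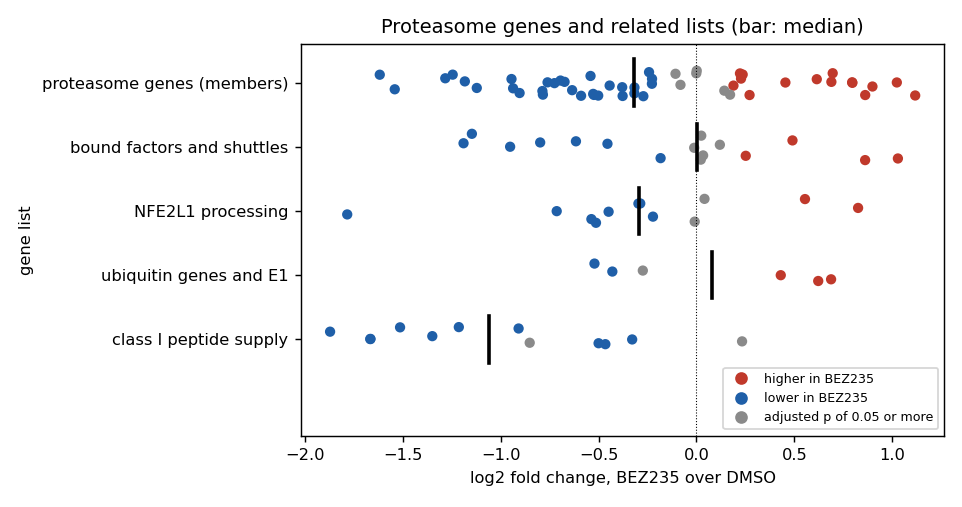
The log2 fold change, BEZ235 over DMSO, of each tested gene (points, coloured by call) in the 53-member proteasome set and 4 lists around it, with the list median as a bar. Medians lie at -0.32 for the proteasome genes, 0.01 for bound factors and shuttles, -0.29 for NFE2L1 processing, 0.08 for ubiquitin genes and -1.06 for class I peptide supply.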

How the data were processed

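RNA sequencing libraries of TC-71 cells, 3 per group, were compared as BEZ235 against DMSO. The authors deposited normalized gene counts, a signal that is never negative; control columns were matched to DMSO samples by number. The submitters' processing notes name hg38, STAR 2.4.0, DESeq, SAMtools, Picard and FastQC, with roles not stated. Per the file headers, rows follow the FASTDB annotation. No source used here gives the counting rule or strand handling. Overlapping rows (25 members have a tested one) and copies such as pseudogenes (13 members) may therefore share reads. Values were whole multiples of the worth of 1 read (100% within 0.01), which gave the read totals.

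Genes with at least 10 normalized counts in 3 of 6 libraries were tested with limma 3.58.1 (R 4.3.3), with a mean-variance trend, on log2(normalized count + 1), two-sided, calling genes at a Benjamini-Hochberg adjusted p below 0.05; this scale understates changes of low genes. PSMA8 and PSMB11 did not pass. Catalytic ratios were compared with exact permutation tests. edgeR 4.0.16 and DESeq2 1.42.0 on recovered reads, other scalings, filters and pseudocounts were alternatives. The fit was tested on simulated data. Lengths came from GENCODE v29 and promoters from RefSeq. Within a group, libraries correlated at 0.982 to 0.987 (Pearson, log2, across genes), and no library duplicated another. Members and lists were chosen with earlier results of these data known. Named in full were the catalytic, control and unexpressed members, POMP, ADRM1, SEM1, the largest called rise and fall of each class, and, per surrounding list, the 2 smallest adjusted p in each direction and TAP1; PSME1 and overlapping genes were added after their values were seen. Some genes that this rule names are not reported here.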

Additional observations from a re-analysis of the deposited data

How the results depend on the processing

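Under the 17 alternatives run, 41 to 47 members were called, 10 to 17 of them higher and 29 to 31 lower, and 14483 to 16102 genes overall. The lowest member count came with total-count scaling, which moved the median of all genes to -0.10 on the log2 scale; quantile normalization gave 47. The count tests called 45 (edgeR) and 46 (DESeq2) members. Of 867 member values under alternatives, 837 kept their direction and side of the threshold, 12 (6 members) lost the call, 8 (PSMD5, PSMC5 and PSMD13) gained it and 10 changed sign. Sign changes concerned 2 uncalled members near 0. The log2 fold change of PSMA4 was -0.09508 under total-count scaling, and leaving out 1 library gave -0.02302 to 0.01352. That of PSME1 was 0.002419 with TMM, 0.03655 with quantile normalization and 0.003137 with edgeR, and leaving out 1 library gave -0.06889 to 0.03308. Losses concerned PSMB4, PSMB5, PSMB7, PSMD3, PSMD4 and PSME3, with log2 fold changes from -0.23 to 0.27. Without 1 library, the log2 fold change ran from -1.97 to -1.37 for PSMB9 and from -1.62 to -0.99 for PSMB8, both always called. The ratio change ran from -1.78 to -1.18 for PSMB8 to PSMB5, from -1.09 to -0.44 for PSMB9 to PSMB6 and from 0.82 to 0.87 for PSMB10 to PSMB7. Same-numbered libraries showed no clear shared deviation, with correlations of -0.0379, 0.0231 and 0.0435. With 3 libraries per group, these correlations cannot show whether the cultures were paired. With the replicate number as a block, 46 members and 15917 genes were called. PSMB8, with 97 and 229 reads, and PSMB11, with 3 and 1, are limited by depth. The cause of each change was not tested.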
